A study of Homo sapiens with 3 samples.

Results

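Translation initiation and elongation factor genes were examined for YTHDC1 occupancy on chromatin in A549 cells, an established human lung adenocarcinoma line. Members were the protein-coding genes of GENCODE release 44 on GRCh37 whose symbol begins with EIF1 to EIF6 or EEF and goes on with letters or digits alone, without the EIF2AK kinases. This rule gave 66 of 20162 protein-coding genes, of which 55 encode factors or their subunits and 11 encode regulators of them. The data were YTHDC1 ChIP-seq of unmodified A549 cells, with 3 replicates in a single group and no treatment or comparison group. The authors pooled the replicates before peak calling, so the analysed set of 6368 peaks (hg19) carried 1 value per peak and no spread between replicates. The depth of each replicate is unknown, and libraries of input DNA, IgG or YTHDC1 knockdown were not analysed here. The labelled cell type could not be checked against markers, since the peaks hold no expression values.

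Protein synthesis begins when the small ribosomal subunit, carrying the initiator tRNA on eIF2, is brought to the capped end of an mRNA by the eIF4 cap-binding complex and the eIF3 scaffold, and then scans for a start codon under the control of eIF1, eIF1A and eIF5. Elongation relies on eEF1A, which delivers aminoacyl-tRNA, and on eEF2, which moves the ribosome along. YTHDC1 is a nuclear protein that reads N6-methyladenosine in RNA and is also found on chromatin. Several of these genes, such as EEF1A1 and EEF2, are known for abundant mRNAs that begin with a C and a run of pyrimidines, a feature through which mTOR controls their translation.

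Start peaks were found at 20 of the 66 genes, or 30.3% (95% Wilson interval 20.6 to 42.2), where 15.7% of all protein-coding genes had one. A start peak is a peak that reaches into 200 bases on either side of any annotated transcript start of the gene. Including peaks elsewhere in the gene or up to 1000 bases outside it, 28 genes had a peak (42.4%, interval 31.2 to 54.4), beside 25.1% of all protein-coding genes. Together these 28 genes held 33 peaks, which comprised 20 start peaks, 9 end peaks and 4 body peaks. End peaks lay within 1000 bases of the end of the gene or of its canonical transcript, and body peaks elsewhere inside the gene. The interval treats genes as units and covers neither experimental variation nor the choice of the gene list.

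The start peaks were more frequent than over all genes but mostly weak. With a q-value under 0.05, that is a −log10 q above 1.30, 8 of the 66 genes kept a start peak (12.1%, interval 6.27 to 22.1). The background for this call, 8.96%, lies inside that wide interval, so no difference from all genes can be read from this share. The same held for any peak with a q-value under 0.05, which 11 members had (16.7%, interval 9.57 to 27.4), beside 14.3% of all genes. With the peak midpoint required inside the start window, 11 members had a start peak (16.7%), beside 10.8% of all genes. At the start of the canonical transcript alone, 16 genes had a peak (24.2%), beside 11.7% of all genes. Members had more annotated starts than other genes, with a median of 8 beside 5, and thus more windows in which a peak could be counted. Among the genes of 10 or more starts, 9 of 25 members (36.0%) and 24.5% of all genes had a start peak. Among those of 1 to 4 starts the values were 5 of 16 (31.2%) and 9.42%, and among those of 5 to 9 starts 6 of 25 (24.0%) and 17.2%. Transcription in A549 cells was not analysed, and its part in these shares was not tested.

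**Figure D1:**
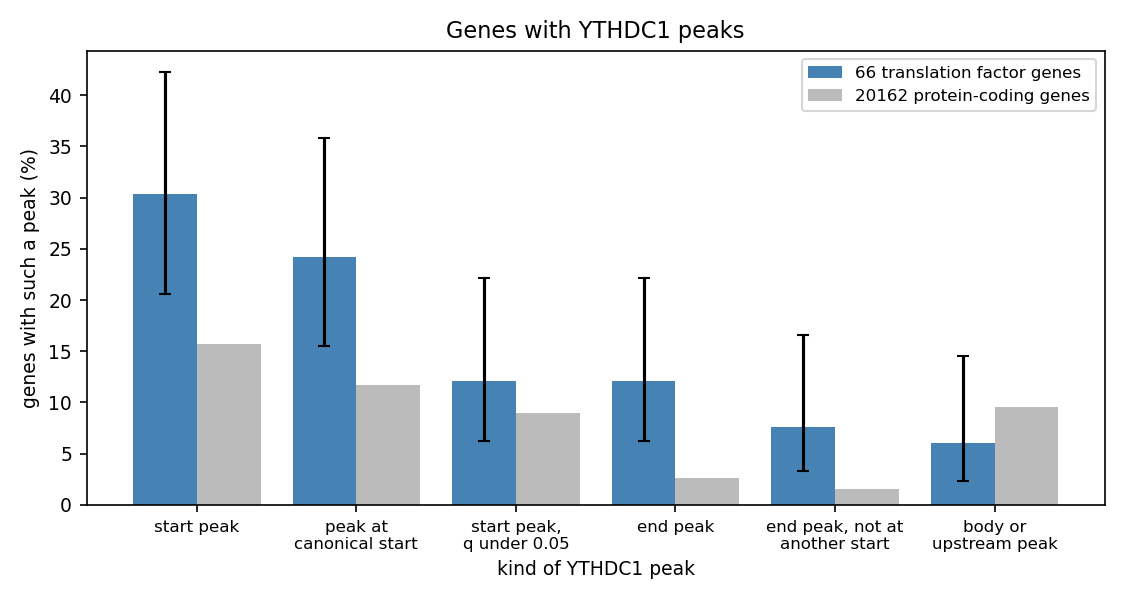
Percent of genes (y axis) with each kind of YTHDC1 peak (x axis) for the 66 translation factor genes (blue, lines are 95% Wilson intervals) and for all 20162 protein-coding genes (grey). Start peaks stand at 30.3% beside 15.7%, but at 12.1% beside 8.96% once a q-value under 0.05 is asked for, and end peaks at 12.1% beside 2.64%.

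The factors that govern start codon selection held the strongest peak of the whole group. EIF1, which keeps the scanning ribosome from starting at a wrong codon, had a start peak of 759 bases with a −log10 q of 7.38 (chr17:39845133-39845891), ranked 81 of 6368 peaks. This peak began at position -4 from the canonical start and was centred in intron 1 of 3. EIF1 also had an end peak of 559 bases (−log10 q 1.44) over its last exon, in the 3' UTR, and another of 414 bases (1.40) beyond the transcript end. EIF1 was thus the single member with 3 peaks. EIF5, the GTPase-activating protein of eIF2, had no start peak and an end peak of 431 bases (−log10 q 2.11). EIF1AX, the X-linked gene of eIF1A, had a body peak in intron 5 of 6 (1.08). EIF1B, a close relative of EIF1, and the Y-linked EIF1AY had none.

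The middle 100 bases of 4 of the 5 start peaks with the highest −log10 q are shown to make their composition visible. They were read from GRCh37 on the strand of the gene, with each CG dinucleotide in capitals, at chr17:39845462-39845561 (plus) for EIF1, chr17:7476524-7476623 (plus) for EIF4A1, chr10:126480429-126480528 (minus) for EEF1AKMT2 and chr6:74230286-74230385 (minus) for EEF1A1.
EIF1: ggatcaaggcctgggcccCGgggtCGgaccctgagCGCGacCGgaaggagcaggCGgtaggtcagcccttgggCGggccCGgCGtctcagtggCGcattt
EIF4A1: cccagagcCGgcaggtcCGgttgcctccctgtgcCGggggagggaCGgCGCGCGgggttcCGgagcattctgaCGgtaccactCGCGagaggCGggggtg
EEF1AKMT2: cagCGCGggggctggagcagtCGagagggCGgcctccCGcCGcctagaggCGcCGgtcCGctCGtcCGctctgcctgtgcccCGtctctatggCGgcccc
EEF1A1: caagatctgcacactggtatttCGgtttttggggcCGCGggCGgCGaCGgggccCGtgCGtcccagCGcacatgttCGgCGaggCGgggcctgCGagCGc
In these 4 windows the GC share was 70.0% to 77.0%, with 10 to 14 CG dinucleotides. The start peak not shown is that of EIF3F, which had a lower GC share over its whole length (53.4%) than the whole peaks of these 4 genes (60.8% to 69.3%).

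Of the 9 genes of eIF2 and its exchange factor eIF2B, which reloads eIF2 with GTP, 3 had a start peak and the other 6 had no peak at all. Over all protein-coding genes 15.7% had a start peak, and the count of 3 of 9 rests on few genes. EIF2S2, encoding the beta subunit of eIF2, had a peak of 543 bases with a −log10 q of 1.13, centred in intron 1 of 8. The exchange factor subunit genes EIF2B3 and EIF2B5 had 1.07 and 0.771. All of these 3 peaks had a q-value above 0.05. EIF2S1, which encodes the alpha subunit phosphorylated under stress, and EIF2S3, which encodes the gamma subunit, had none. Among the genes for eIF2A, eIF2D, eIF5B and eIF6, only EIF6, whose product keeps the large ribosomal subunit from joining too early, had a peak (−log10 q 1.21), with its midpoint 3 bases downstream of the canonical start.

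The eIF3 complex, the largest initiation factor, had start peaks at 3 of its 14 genes, beside 15.7% of all protein-coding genes. EIF3F stood highest with a −log10 q of 2.89 over 483 bases, and its peak was centred at -324 from the canonical start, inside the gene as annotated but upstream of its canonical transcript. EIF3A, encoding the largest subunit, had 1.15 with a peak of 599 bases centred in intron 1 of 21. EIF3M had 0.824. EIF3G, an RNA-binding subunit, had an end peak in its last intron (0.807) and none at a start. The remaining 10 genes, among them EIF3B, EIF3D, EIF3E and EIF3H, had no peak within 1000 bases. EIF3C and EIF3CL are near-identical copies whose reads cannot be told apart, so that their lack of a peak is uncertain.

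The eIF4 group, which recognises the cap and unwinds the mRNA, had the most start peaks, at 7 of 12 genes. Over all protein-coding genes the share was 15.7%. Of these start peaks, only those of EIF4A1, EIF4B and EIF4E3 had a q-value under 0.05. A peak of some kind was present at 9 of the 12 genes, beside 25.1% of all protein-coding genes. EIF4A1, encoding the principal RNA helicase of initiation, had a wide start peak of 1014 bases with a −log10 q of 3.80 (chr17:7476068-7477081). Its second peak, of 670 bases (3.99, chr17:7482357-7483026), followed the transcript end and also lay at a start of the neighbouring gene CD68. EIF4A2, the paralogue of EIF4A1, had the same arrangement of a start peak (401 bases, 1.12) and a wider peak of 966 bases past its end (2.08, chr3:186507865-186508830), and here no start of another gene was near the end peak. EIF4A3, a paralogue that acts in the exon junction complex, had none.

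EIF4B, a cofactor of the helicase, had a start peak of 293 bases with a −log10 q of 2.12. The cap-binding protein gene EIF4E had no peak, whereas its relatives EIF4E2, EIF4E3 and EIF4E1B had start peaks of 1.19, 1.64 and 0.973. Each of these 3 peaks also lay at a start of another protein-coding gene: TIGD1 for EIF4E2, GPR27 for EIF4E3 and SNCB for EIF4E1B. The EIF4E3 peak was at an alternative start, with its midpoint at -28622 from the canonical one. The scaffold genes differed in place. EIF4G2, encoding a scaffold of cap-independent initiation, had a start peak (1.14). EIF4G1 had an end peak (1.02) at a start of the next gene, FAM131A, and EIF4G3 had a body peak in intron 2 of 36 (0.995). EIF4H had none, and neither had any of the 3 eIF5A genes.

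Among the 6 genes of eEF1, EEF1A1 and EEF1G had start peaks, where 15.7% of all protein-coding genes had one. EEF1A1, the source of the main delivery factor for aminoacyl-tRNA, had a start peak of 966 bases with a −log10 q of 2.34 (chr6:74229854-74230819). A second peak of 1083 bases (2.36, chr6:74223588-74224670) began 803 bases beyond the end of its canonical transcript, but inside the gene as annotated. It was the widest of all 33 peaks. EEF1G, a subunit of the exchange factor of eEF1A, had a peak of 394 bases (1.82) centred at -564. This peak lay 173 bases outside the gene and only reached into the window of an alternative start. It also lay at a start of a long non-coding RNA gene. EEF1A2, the form typical of muscle and neurons, EEF1B2, EEF1D and EEF1E1 had none. EEF2, encoding the translocation factor, had none either, and the nearest peak was 21583 bases away. EEFSEC, which delivers selenocysteine-tRNA, had a narrow peak of 232 bases with a −log10 q of 0.831.

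Of the 11 regulators, 2 had a start peak, which is near the share of 15.7% over all protein-coding genes. EEF1AKMT2, which encodes a lysine methyltransferase acting on eEF1A, had 3.39 over 709 bases (chr10:126480125-126480833), with its midpoint at -23 from the canonical start. EEF1AKMT1, another methyltransferase of eEF1A, had 0.955. The third, EEF1AKMT3, had an end peak (1.31) that lay at a start of TSFM, a mitochondrial elongation factor gene. Genes of the eIF4E-binding proteins, which block cap-dependent initiation until mTOR phosphorylates them, had weak body peaks: EIF4EBP1 in intron 1 of 2 (1.00) and EIF4EBP2 in the 3' UTR of exon 3 of 3 (0.821). EIF4EBP3, EIF4ENIF1, the eEF2 kinase gene EEF2K, EEF2KMT, EEF1AKMT4 and EIF1AD had none.

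**Figure D2:**
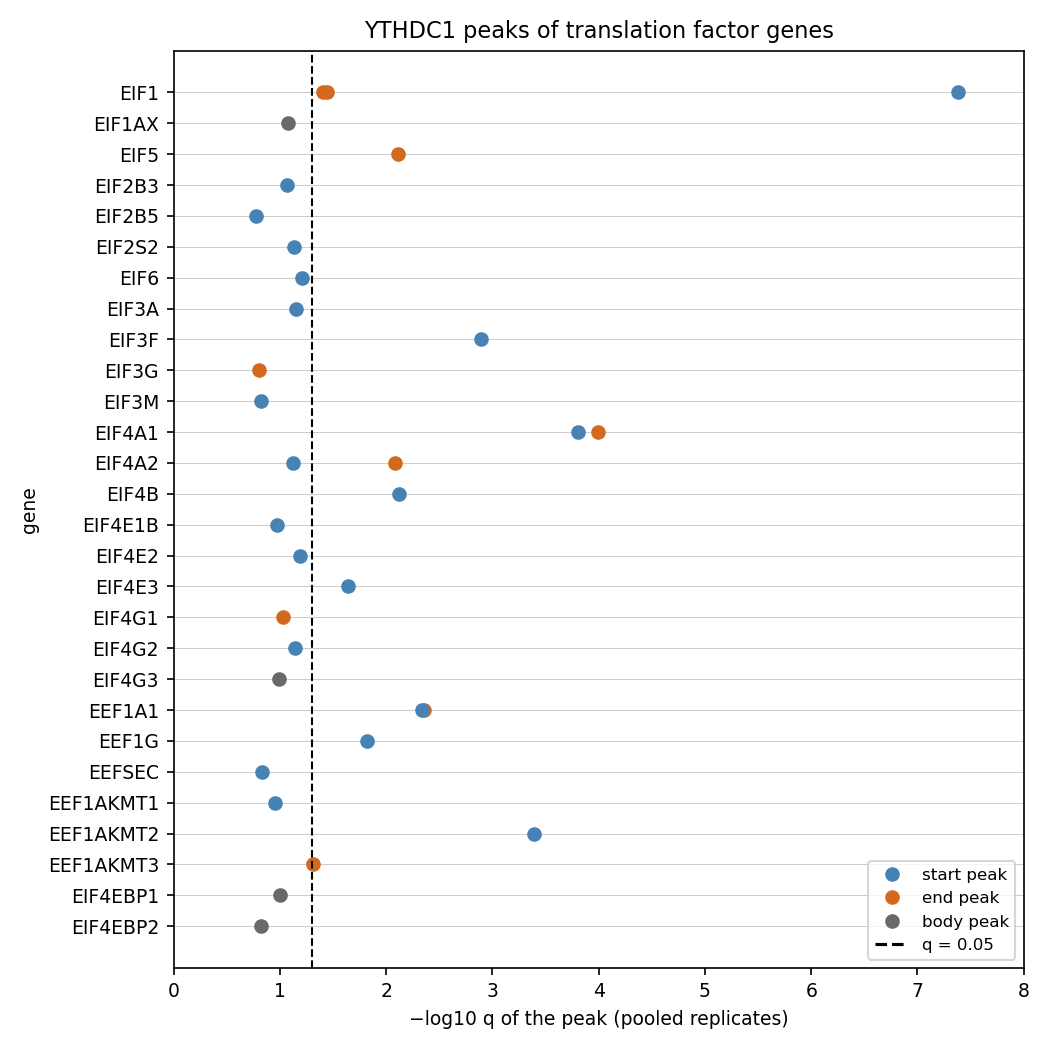
−log10 q of each of the 33 peaks (x axis) for the 28 genes with a peak (y axis, grouped by role), coloured by the place of the peak, with the dashed line at a q-value of 0.05. EIF1 stands alone at 7.38, followed by the EIF4A1 peaks (3.99 and 3.80) and EEF1AKMT2 (3.39), while the other 29 peaks lie below 3.

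In all, 38 members had no peak within 1000 bases. The nearest peaks lay 2770 bases from EEF1D, 2946 bases from EIF5A and 8683 bases from EEF2K. The farthest were 8088240 bases from EIF1AY, 2336246 bases from EIF4H and 728599 bases from EIF5B. A gene without a called peak may still carry signal below the threshold of the peak caller.

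Measured from the canonical start, the start peaks were often centred downstream. Measured from any annotated start, 11 of the 20 genes had a peak midpoint within 200 bases. For 9 of the 20 genes (45.0%) the midpoint of the strongest start peak lay 201 to 1000 bases downstream of the canonical start, and the share among all protein-coding genes with a start peak was 33.3%. The midpoint fell in intron 1 for 10 genes (50.0%, beside 30.7%) and in exon 1 for 2 genes (10.0%, beside 24.8%). EIF4A2 was centred at 676, EIF4G2 at 571, EIF4A1 at 431, EEF1A1 at 419 and EIF1 at 375 bases downstream. Except for EIF1, the midpoints of these peaks lay 21 to 50 bases from another annotated start of the same gene. Another 5 genes (25.0%, beside 22.5%) had the midpoint more than 200 bases upstream. The peaks of EIF4A2, EIF4G2, EIF4E3 and EEF1G did not reach the window of the canonical start and were counted through an alternative start. The start peaks of 9 genes (45.0%, beside 33.7%) also lay at a start of another gene, which was a long non-coding RNA gene at EIF2B5, EIF3A, EIF4A1, EIF4A2 and EEF1G. With 20 genes, these shares each rest on few peaks.

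**Figure D3:**
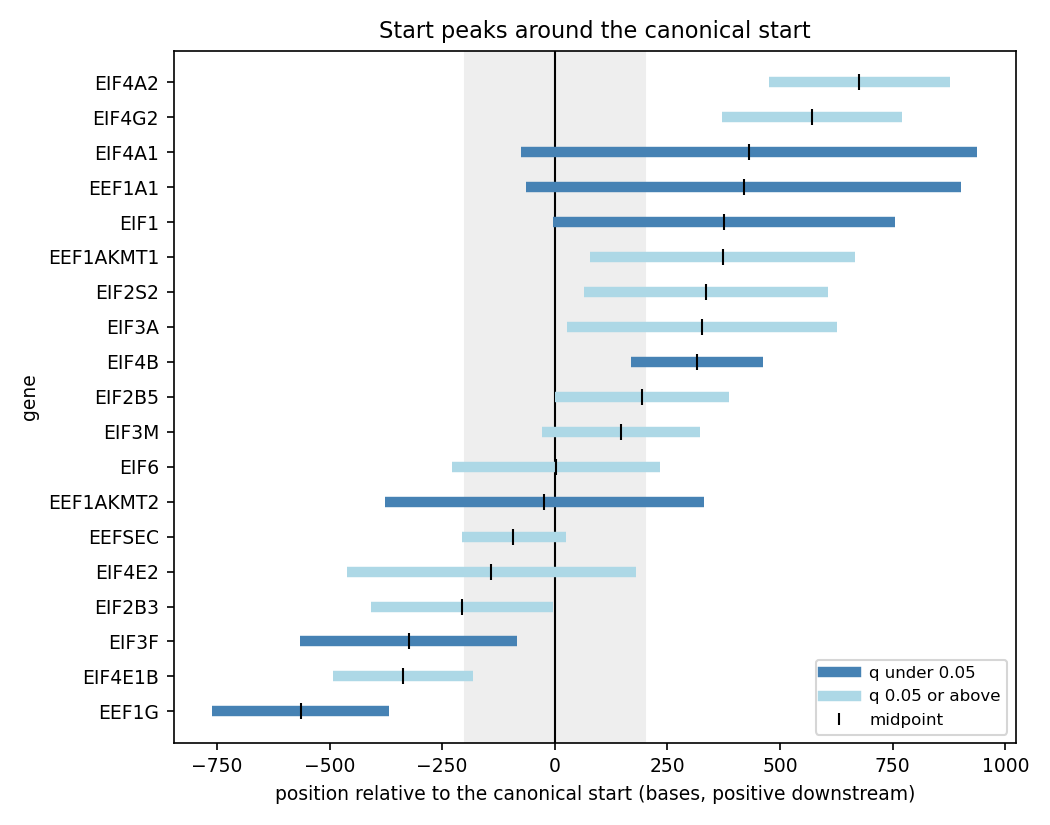
Extent of the start peaks (bars) relative to the canonical start (x axis, bases, positive downstream) for 19 genes (y axis), dark where the q-value is under 0.05, with the midpoint as a tick and the window of 200 bases on each side shaded. EIF4E3, centred at -28622, is left out. The bars of EIF1, EIF4A1 and EEF1A1 begin near the start and run 754 to 938 bases downstream.

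Gene ends carried peaks at 8 of the 66 genes, or 12.1% (interval 6.27 to 22.1), beside 2.64% of all protein-coding genes. At EIF4A1, EIF4G1 and EEF1AKMT3 the end peak lay at a start of another gene. Without these, 5 genes remained (7.58%, interval 3.28 to 16.5), namely EIF1, EIF5, EIF3G, EIF4A2 and EEF1A1, beside 1.51% of all genes. Both a start and an end peak were present at EIF1, EIF4A1, EIF4A2 and EEF1A1, that is 6.06% of members beside 0.655% of all genes. These were also the 4 members with 2 or more peaks (6.06%, beside 4.32%). Without the end peak of EIF4A1, which lay at a start of CD68, 3 members had both (4.55%, beside 0.327%). Among the genes with a start peak these are 4 of 20 (20.0%), and 132 of 3163 over all protein-coding genes (4.17%). Of these 4 genes, 3 are short, with 3784 bases for EIF1, 6183 for EIF4A1 and 6693 for EIF4A2, whereas the median length of all protein-coding genes was 27220 bases. Of the 9 end peaks, 7 had a q-value under 0.05 (77.8%, beside 56.8% of all end peaks of protein-coding genes), a share that rests on few peaks. Wholly beyond the canonical transcript end lay 7 of the 9, a count for which no share over all genes was computed. Of those beyond the end, the EEF1A1 peak still lay inside the gene as annotated. Body or upstream peaks were found at 4 members (6.06%, interval 2.38 to 14.6), and the background share of 9.52% lies within this interval.

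**Figure D4:**
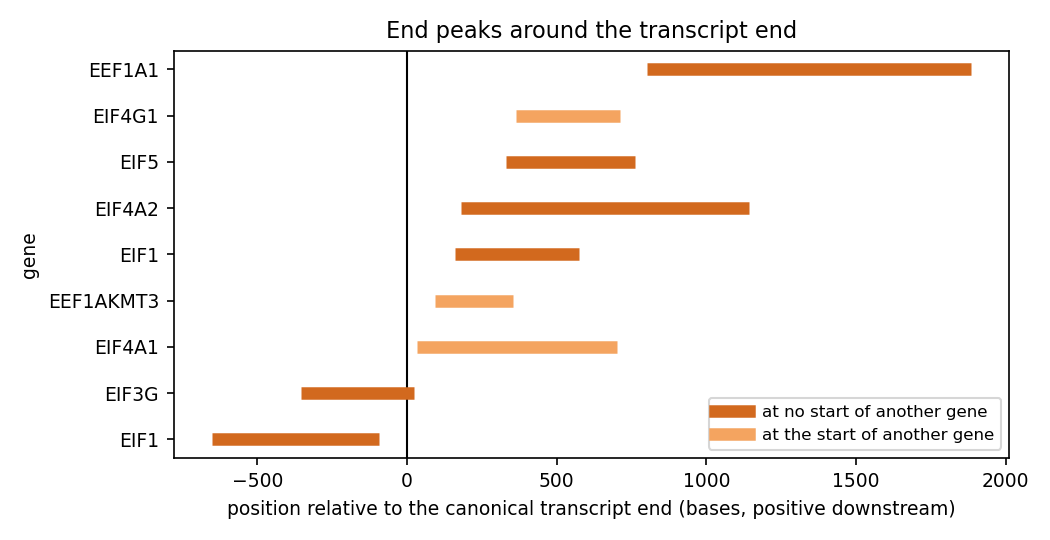
Extent of the 9 end peaks (bars) relative to the end of the canonical transcript (x axis, bases, positive downstream) for 8 genes (y axis), light where the peak also lies at a start of another gene. All but the lower EIF1 bar and EIF3G begin beyond the transcript end, and the EEF1A1 peak is the farthest, beginning at 803.

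The peaks of these genes were wider than most and not stronger. Start peaks of members had a median width of 472.5 bases (range 232 to 1014) and a median −log10 q of 1.17 (0.771 to 7.38). All start peaks of protein-coding genes had medians of 373 bases and 1.39. A q-value under 0.05 was reached by 8 of the 20 start peaks (40%, beside 55.6%). Of the 33 peaks, 4 spanned 800 bases or more (12.1%, beside 5.03% of all peaks), and these were the start peaks of EIF4A1 and EEF1A1 and the end peaks of EIF4A2 and EEF1A1. By class, the shares were 10.0% of member start peaks beside 5.97% of all start peaks. They were 22.2% of member end peaks beside 13.3% of all end peaks. A start peak of this width was thus present at 2 members (3.03%, interval 0.835 to 10.4). The share of all protein-coding genes, 0.972%, lies inside this interval. These medians describe the peaks of 1 pooled set.

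**Figure D5:**
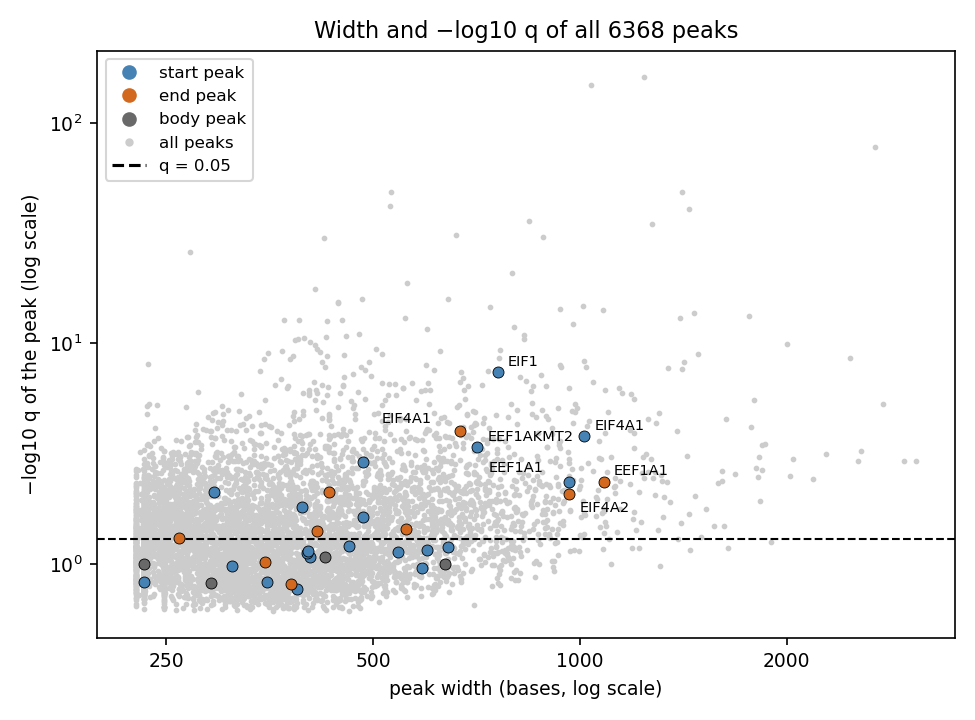
Width (x axis, bases, log scale) and −log10 q (y axis, log scale) of all 6368 peaks (grey) and of the 33 peaks of translation factor genes, coloured by place, with the dashed line at a q-value of 0.05. EIF1 has the highest −log10 q of the group (7.38), and EIF4A1, EIF4A2 and EEF1A1 hold the 4 peaks wider than 800 bases.

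Sequence set start peaks apart from the other peaks of the group. Member start peaks had a mean GC share of 66.2% ± 6.06 (SD over 20 peaks) and a CpG ratio (observed over expected) of 0.842 ± 0.109, and all start peaks of protein-coding genes had 65.6% ± 8.15 and 0.780 ± 0.177. End peaks of members had 53.1% ± 9.96 and 0.450 ± 0.300. Promoters, taken as 250 bases before to 50 after the canonical start, hardly differed between members with a start peak (64.9% ± 7.24 GC, CpG ratio 0.920 ± 0.101) and those without (63.8% ± 7.21 and 0.919 ± 0.194). Over all protein-coding genes the corresponding CpG ratios were 0.836 ± 0.202 and 0.648 ± 0.326. The sequence GGACT, a form of the m6A consensus, was searched on both strands in the 300 bases around each peak midpoint. It was present in 14 of the 33 peaks (42.4%) and in 43.1% of all peaks.

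Starts of 5 core members, chosen whatever their peaks, are shown to set the pyrimidine start beside occupancy. Each stretch holds 60 bases before and 30 bases from the canonical start on GRCh37, on the strand of the gene, with the run of C and T that opens the transcript in capitals. The stretches are chr6:74230726-74230815 (minus) for EEF1A1, chr19:3985432-3985521 (minus) for EEF2, chr17:7476083-7476172 (plus) for EIF4A1, chr3:186501306-186501395 (plus) for EIF4A2 and chr11:10830444-10830533 (minus) for EIF4G2.
EEF1A1: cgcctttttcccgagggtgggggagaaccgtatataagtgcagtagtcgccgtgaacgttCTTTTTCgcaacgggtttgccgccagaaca
EEF2: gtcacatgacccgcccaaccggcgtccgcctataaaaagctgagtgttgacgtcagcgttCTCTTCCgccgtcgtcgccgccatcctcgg
EIF4A1: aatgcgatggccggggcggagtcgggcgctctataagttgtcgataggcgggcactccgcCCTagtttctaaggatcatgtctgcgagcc
EIF4A2: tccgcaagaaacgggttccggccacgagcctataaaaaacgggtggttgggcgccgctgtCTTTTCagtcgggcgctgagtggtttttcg
EIF4G2: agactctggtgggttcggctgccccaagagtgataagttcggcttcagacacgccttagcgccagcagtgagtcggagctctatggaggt
EEF1A1 and EEF2 open with runs of 7 pyrimidines and EIF4A2 with 6, whereas the run is 3 at EIF4A1, and EIF4G2 has none.

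A start of C followed by at least 4 further C or T was found at 21 of the 66 genes (31.8%), beside 4.55% of all protein-coding genes. Among members this feature did not follow the peaks: it was present at 6 of the 20 with a start peak (30.0%) and at 15 of the 46 without (32.6%). Over all protein-coding genes the shares were 5.75% and 4.33%. EEF1A1 and EEF2 are a single example, the first with peaks and the second with none. The letters TATAA, 40 to 15 bases before the canonical start on the strand of the gene, occurred at 7 members (10.6%, beside 6.02% of all genes), and on the other strand at 1 (1.52%, beside 1.94%). Of the 7 genes, EIF1, EIF4A1, EIF4A2, EIF4B and EEF1A1 had a start peak, and EEF1B2 and EEF2 had none. That is 25.0% of the members with a start peak and 4.35% of those without, whereas over all protein-coding genes the shares were 3.95% and 6.40%. All 4 members with both start and end peaks held TATAA there, as did 21 of the 132 protein-coding genes with both (15.9%). The split by start peak rests on 5 and 2 genes. TATAA was not among the features set down for comparison beforehand, and the count for genes with both peaks was chosen after the values were seen.

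Small nucleolar RNA genes, which guide the modification of other RNAs, lay inside 9 of the 66 genes (13.6%, beside 2.10% of all protein-coding genes). EIF4A2 holds 5 of them. Hosts were 4 of the 20 members with a start peak (20.0%: EIF3A, EIF4A1, EIF4A2 and EIF4G2) and 5 of the 46 without (10.9%). Over all protein-coding genes these shares were 2.53% and 2.02%. The split among members rests on few genes. No peak overlapped such an RNA gene, and the closest distance was 343 bases, to SNORD2 in EIF4A2. A start of a gene on the other strand within 1000 bases upstream was present at 29 members (43.9%, beside 24.3%), which were 7 of the 20 with a start peak (35.0%) and 22 of the 46 without (47.8%). Over all protein-coding genes the order was the opposite, with 32.0% and 22.9%. Of 155 annotated pseudogenes named after members, 1 was overlapped by a peak (0.645%, beside 0.487% of all pseudogenes), EEF1A1P23, and that peak also lay at starts of OPA1 and ATP13A4.

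A further 7 lists of translation genes were read by the same rule, with 78 genes in all. Start peaks were present at 24 of the 78 (30.8%), beside the background of 15.7%. These lists, like the members, were chosen with earlier results of these data known, so this share is no independent support. The kinases and phosphatase subunits that act on eIF2 alpha had 3 of 6, with EIF2AK3 (the ER stress kinase PERK, −log10 q 1.68), EIF2AK2 (the double-stranded RNA sensor PKR, 1.13) and EIF2AK1 (1.06). The mTORC1 pathway had 5 of 11, led by TSC1 (3.75), an inhibitor of the pathway, AKT1S1 (2.27) and RPTOR (1.91). Mitochondrial translation factors had 5 of 10, led by MTIF2 (1.73), MTFMT (1.60) and TSFM (1.31). With 6 to 11 genes in each of these lists, the counts rest on few genes. The EIF2AK1 and EIF2AK2 peaks had a q-value above 0.05.

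The remaining lists had shares from 37.5% down to 12.5%, beside the background of 15.7%. With 8 to 23 genes in each, these shares rest on few genes. Enzymes that modify eIF5A and eEF2 had 3 of 8 (37.5%), DPH7 (3.36), DHPS (2.01) and DPH6 (1.24). EEF2 and the eIF5A genes themselves had no peak. Cytosolic aminoacyl-tRNA synthetases and their scaffolds had 5 of 23 (21.7%), among them CARS1 (2.09) and AARS1 (1.67). Poly(A)-binding proteins and other cofactors were near the background with 2 of 12 (16.7%), PAIP1 (3.45) and PAIP2 (0.864). Termination, recycling and rescue factors were also near it with 1 of 8 (12.5%), GSPT1 (1.63), which encodes the release factor eRF3a.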

How the data were processed

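YTHDC1 ChIP-seq reads of 3 A549 replicates were aligned to hg19 and pooled by the authors, who called broad peaks with MACS2 (q-value 0.1, broad cutoff 0.25). The methods name Bowtie2 and the submitters' processing notes name BWA. The deposited file gives a position and 1 value per peak, taken to be −log10 of the q-value because its lowest value, 0.610, lies just above 0.602, −log10 of the broad cutoff. No control library is named in the sources used here.

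Peaks were assigned to genes of GENCODE release 44 mapped to GRCh37, the assembly of hg19, and sequences were read from that assembly. Each peak was classed start, end, body or upstream, in this order. Every member with a peak is named, as are the 3 nearest and 3 farthest peaks of members without one and up to 3 genes per other list. The members and lists were chosen with earlier results of these data known. No test was made, since the pooled set has no replicate values and no comparison group. Counts are set beside the share of all protein-coding genes called by the same rule. The counting was tested on simulated peaks. A few items are withheld for evaluation, and their values are left out. Readthrough genes with a hyphen in the symbol were left out. Python 3.11.15, numpy 2.4.6, pandas 2.3.3, scipy 1.17.1 and matplotlib 3.10.9 were used.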

Additional observations from a re-analysis of the deposited data

How the results depend on the processing

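Of 36 values under 10 alternative settings, 24 stayed close to the reported ones (counts within 1.5 times, medians within their 95% interval), and 12 moved. Counting a peak by its midpoint left 11 members with a start peak. With at least 50% of the peak inside the start window 9 members had one (13.6%), beside 2091 protein-coding genes (10.4%). This gap was smaller than that of the main count, 30.3% beside 15.7%. With peaks of a q-value under 0.05, 8 members had a start peak and 11 any peak, 1806 protein-coding genes had a start peak, and the median −log10 q of member peaks was 2.12. Among the 3184 strongest peaks these values were 8 (12.1%), 10 (15.2%), 1741 (8.64%) and 2.23, and the median width was 614.5 bases. The filters on −log10 q raise its median by construction. Wider start windows of 500 and 1000 bases gave 21 and 22 members (31.8% and 33.3%), beside 18.6% and 20.0% of all protein-coding genes. Factor subunits alone gave 18 of 55 genes (32.7%), beside the main background of 15.7%.

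No paired analysis was possible because the authors pooled the 3 replicates of the single group before peak calling, and for the same reason no replicate was left out. The depth of each replicate is unknown.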
